A study of Mus musculus with 12 samples.

Results

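The Ikaros zinc finger family was described through the 4 of its 5 genes, Ikzf1 and Ikzf3 to Ikzf5, found by gene symbol among the 12151 genes of the expression table. Ikzf2 was not analysed here. The 12 RNA sequencing libraries came from murine pre-B cells carrying BCR-ABL1, the fusion kinase of Philadelphia chromosome-positive leukemia. The pre-B cells had been grown with IL-7 from the bone marrow of mice aged 6 to 12 weeks, and all carried Ctnnb1Ex3fl/+, an allele of the β-catenin gene that Cre recombinase converts into a form that escapes degradation. The libraries fell into 4 groups of 3. Cells had been electroporated with Cas9 ribonucleoproteins holding nontargeting guides (sgNTC, here WT) or guides against Ikzf1 and Ikzf3 (here KO), lines had been grown from single cells, and each line had then received a GFP vector for ERT2 alone or for Cre-ERT2, which is activated by 4-OHT. The labels of all 4 groups place sampling 1 day after 4-OHT, in a sentence worded for ChIP. Both vectors were thus present in WT and in KO cells, and every group had the floxed Ctnnb1 allele. KO and WT are used throughout as the labels give them. The labels do not say which single-cell line each library came from, so a difference between KO and WT cannot be told apart from a difference between lines, and p-values measure the spread between 3 libraries that may be technical replicates.

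Ikaros (encoded by Ikzf1) and Aiolos (Ikzf3) are transcription factors of the lymphoid lineage that bind DNA through zinc fingers near the N terminus and form homodimers and heterodimers through zinc fingers at the C terminus. They recruit chromatin remodelers such as the NuRD complex and both repress and activate genes in developing B cells, and IKZF1 is a tumor suppressor in human B cell acute lymphoblastic leukemia. Eos (Ikzf4) is best known from regulatory T cells, and Pegasus (Ikzf5) is a broadly expressed relative.

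The KO label names editing with these guides, shown because they define where the genes were cut. The study reports western blots for loss of the Ikaros proteins in clones grown from single cells. Which of these clones gave each library is not stated. Each target site is written 5′ to 3′ with the PAM, the motif that Cas9 needs beside its target, in capitals.
Ikzf1 site: ctggagtgtcactgactgggGGG
Ikzf3 site: attatgaagccggagcccatGGG
The Ikzf1 site lay at chr11:11707795-11707817 (GRCm38) on the minus strand, opposite to the gene, which spans chr11:11685003-11772926 on the plus strand. The Ikzf3 site lay at chr11:98490520-98490542 on the minus strand, the strand of the gene itself, which spans chr11:98464902-98546031. Both sites were in coding exons, exon 3 of the Ikzf1-203 transcript and exon 4 of the Ikzf3-201 transcript in the GENCODE M21 mouse annotation. The mRNA around each site, read along the gene with the site in capitals, shows the opposite orientation of the guides.
Ikzf1 mRNA: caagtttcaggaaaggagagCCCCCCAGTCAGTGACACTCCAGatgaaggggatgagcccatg
Ikzf3 mRNA: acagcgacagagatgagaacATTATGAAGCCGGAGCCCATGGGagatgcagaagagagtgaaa

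Cas9 cuts 3 bases from the PAM, which placed the cut in codon 19 of 535 of Ikzf1-203 and in codon 76 of 507 of Ikzf3-201. The first stretch with the cysteine and histidine spacing of a C2H2 zinc finger began at codon 139 in Ikzf1 and at codon 119 in Ikzf3, so both cuts preceded every zinc finger found by that spacing. That spacing occurred 6 times in the Ikzf1 coding sequence and 5 times in those of Ikzf3, Ikzf4 and Ikzf5. All 4 complete Ikzf1 coding transcripts of the annotation held the site, at codon 19 in each. A small insertion or deletion at these sites leaves most of the transcript countable and may or may not lower its amount, so whole-gene mRNA values do not test whether the proteins were lost. What the edits did to the transcripts was not tested.

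**Figure D1:**
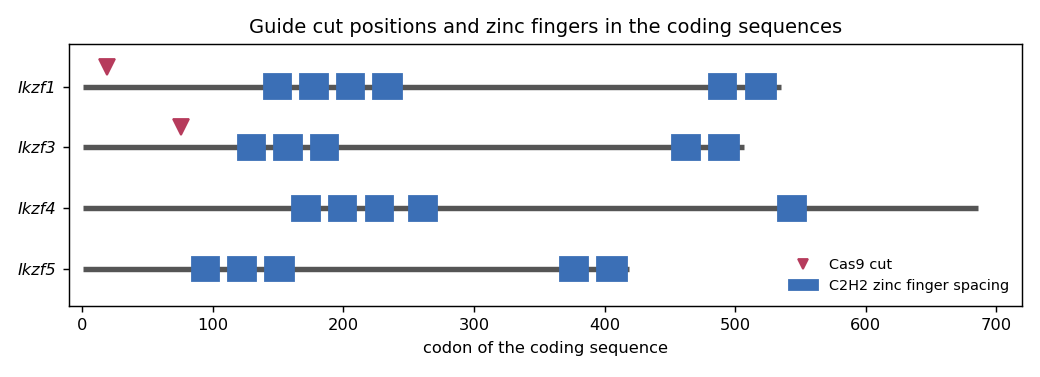
Map of the longest complete coding sequence of each gene, with codon number on the horizontal axis; blue boxes mark stretches with C2H2 zinc finger spacing and red triangles the Cas9 cuts. The cuts, at codon 19 of Ikzf1 and codon 76 of Ikzf3, sit to the left of every box.

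In transcripts of the GENCODE M21 annotation, no other site of the Ikzf3 guide with up to 3 mismatches and an NGG PAM was found on either strand, and sites with 3 mismatches were found for the Ikzf1 guide in Sgpp2 and Wdr4. These are shown with the bases that differ from the guide in capitals, and positions of substitutions are counted from 1 at the guide's 5′ end.
Sgpp2 site: ctggaCtgtcCctgaGtgggtgg
Wdr4 site: ctggagtgGcactgacAggCggg
The Sgpp2 site, at chr1:78417890-78417912, differed by G6C, A11C and C16G. The Wdr4 site, at chr17:31503380-31503402, differed by T9G, T17A and G20C. Sgpp2 expression was not analysed here. Wdr4, which encodes a subunit of a tRNA methyltransferase, was not called, with KO minus WT differences of 0.16 with ERT2 (limma adjusted p = 0.188) and 0.079 with Cre-ERT2 (adjusted p = 0.527). Introns and intergenic sequence were not searched.

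Values are log2 normalized expression, on which a difference of 1 is a doubling if they are plain log2 of scaled counts. The step to log2 was not given, and the fold changes and unlogged values below assume that scale. Groups were compared through limma with Benjamini-Hochberg adjustment over 12151 genes and a call at an adjusted p under 0.05. The deposited table gave no read counts, so the depth behind each value is unknown.

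Ikzf1 mRNA rose in the libraries labelled KO. In ERT2 WT its values were 13.75, 13.74 and 13.73, and in Cre-ERT2 WT they were 13.67, 13.70 and 13.66. In ERT2 KO they were 14.75, 14.74 and 14.76, and in Cre-ERT2 KO 14.59, 14.56 and 14.61. All 6 KO libraries lay above all 6 WT libraries, and the 4 groups did not overlap. With ERT2, the WT mean was 13.74 ± 0.012 (SD, n = 3) and the KO mean 14.75 ± 0.0067 (SD, n = 3), a rise of 1.01 (95% interval 0.97 to 1.05, limma adjusted p = 1.93e-13), or 2.01-fold. With Cre-ERT2, it was 13.68 ± 0.021 (SD, n = 3) in WT and 14.58 ± 0.023 (SD, n = 3) in KO, a rise of 0.90 (95% interval 0.86 to 0.94, adjusted p = 4.63e-13). Over both vectors, the mean difference was 0.96, with a 2-sided exact permutation p of 0.005, the smallest that exchanging KO and WT labels within each vector can give. Of all genes, 1.92% changed by more than Ikzf1 with ERT2 in either direction. This rise goes against a loss of Ikzf1 mRNA, and the labels were kept as deposited.

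Ikzf3 mRNA fell in the same libraries. Its values were 11.59, 11.68 and 11.61 in ERT2 WT and 11.93, 11.91 and 11.91 in Cre-ERT2 WT. In ERT2 KO they were 10.97, 10.998 and 10.98, and in Cre-ERT2 KO 11.34, 11.13 and 11.19. Every KO library lay below every WT library. With ERT2, the mean went from 11.63 ± 0.049 (SD, n = 3) to 10.98 ± 0.014 (SD, n = 3) and fell by 0.65 (SE 0.043, limma adjusted p = 5.23e-08). With Cre-ERT2, it went from 11.92 ± 0.012 (SD, n = 3) to 11.22 ± 0.108 (SD, n = 3) and fell by 0.70 (SE 0.043, adjusted p = 2.31e-08). The KO level with ERT2 was 0.639 of the WT level on the unlogged scale, and 4.73% of all genes changed by more in either direction. The mean difference over vectors was -0.67, again at the smallest exact permutation p of 0.005.

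**Figure D2:**
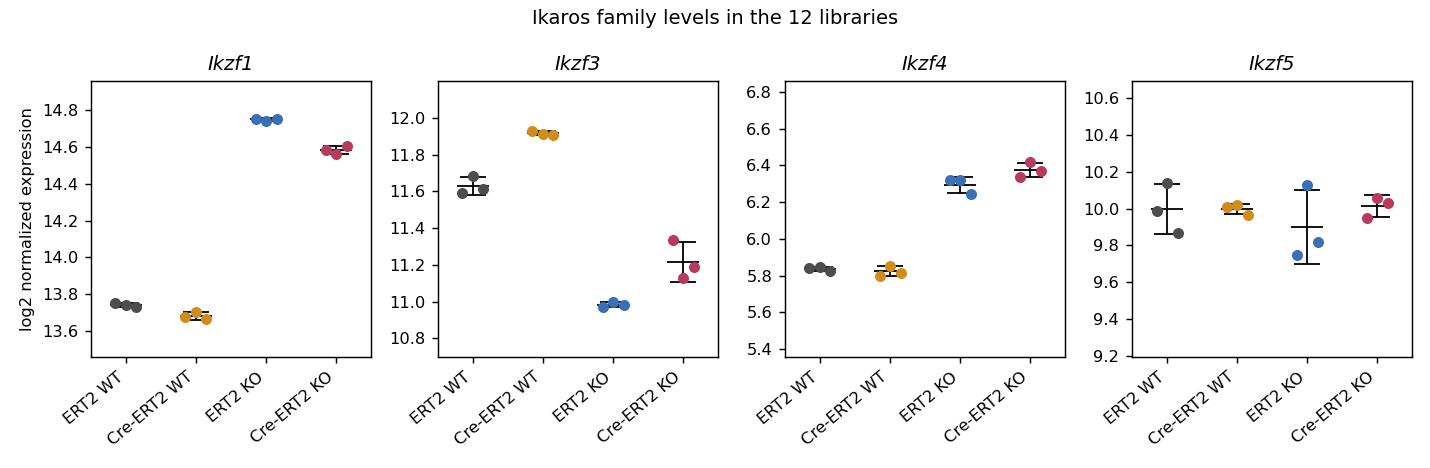
Log2 normalized expression of Ikzf1, Ikzf3, Ikzf4 and Ikzf5 in the 12 libraries, 1 point each in replicate order within the 4 groups; black bars give the group mean and SD, and each panel spans the same range of 1.5 log2 units. The KO groups sit above WT for Ikzf1 and Ikzf4 and below WT for Ikzf3, and the Ikzf5 groups overlap.

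Because Ikzf1 rose and Ikzf3 fell, the distance between them within a library widened. Ikzf1 minus Ikzf3 was 2.16, 2.06 and 2.12 in ERT2 WT and 1.75, 1.79 and 1.76 in Cre-ERT2 WT. It was 3.78, 3.75 and 3.78 in ERT2 KO and 3.25, 3.43 and 3.42 in Cre-ERT2 KO. A scaling factor per library cancels in this difference if the values are plain log2 of scaled counts, but the step to log2 was not given. The groups did not overlap. Ikzf1 minus Ikzf3 was 1.63 higher in KO than in WT as a mean over vectors (exact permutation p = 0.005, the smallest possible).

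Ikzf4, which no guide targeted, also rose in KO. Its values were 5.84, 5.85 and 5.82 in ERT2 WT and 5.80, 5.85 and 5.82 in Cre-ERT2 WT, so the WT groups overlapped. They were 6.32, 6.32 and 6.24 in ERT2 KO and 6.34, 6.42 and 6.37 in Cre-ERT2 KO. The rise was 0.46 (SE 0.028, limma adjusted p = 2.09e-08) with ERT2 and 0.55 (SE 0.028, adjusted p = 3.15e-09) with Cre-ERT2. Ikzf4 lies on chromosome 10, from 128630843 to 128645991 (GRCm38), on the minus strand.

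Ikzf5 was not called in any comparison. Its values were 9.99, 10.14 and 9.87 in ERT2 WT, 10.01, 10.02 and 9.97 in Cre-ERT2 WT, 9.75, 10.13 and 9.82 in ERT2 KO, and 9.95, 10.06 and 10.03 in Cre-ERT2 KO. Replicate 2 was the highest library of every group, and all groups overlapped. The KO minus WT difference with ERT2 was -0.10 (95% interval -0.29 to 0.089, limma adjusted p = 0.345), and with Cre-ERT2 it was 0.015 (95% interval -0.17 to 0.20, adjusted p = 0.896). Without replicate 2 of ERT2 KO the first difference was -0.21 and was called (adjusted p = 0.0152). The residual SD of Ikzf5 was 0.127, and 2.13% of the 1928 genes within 0.5 of its mean level had a larger one. Ikzf1 lay at the other end, with a residual SD of 0.017 that 93.1% of the 173 genes of like level exceeded.

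In all, 3 of 4 family genes were called between KO and WT with ERT2, where 59.0% of all genes were called, and 3 of 4 with Cre-ERT2, where 58.9% were called. The number of calls is therefore no result about the family. The sizes varied within the family. The median absolute change over all genes was 0.105 with ERT2. Beside it stood 1.01 for Ikzf1 and -0.65 for Ikzf3, the edited genes, 0.46 for Ikzf4 and -0.10 for Ikzf5.

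**Figure D3:**
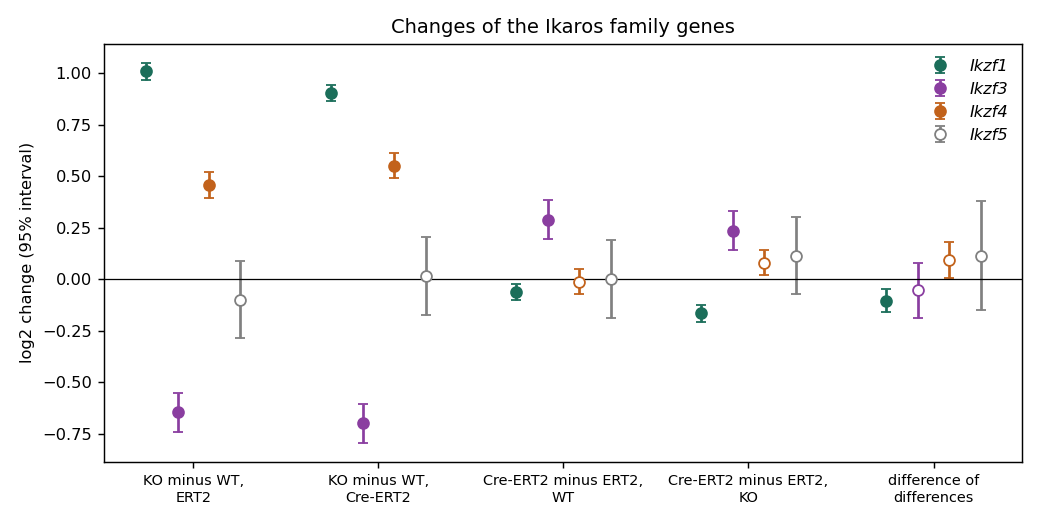
Log2 changes of the 4 genes with 95% limma intervals (not adjusted for multiple genes) in 5 comparisons; filled points had an adjusted p under 0.05. Ikzf1 and Ikzf4 were higher and Ikzf3 lower in KO with both vectors, and the Cre-ERT2 changes of Ikzf1 and Ikzf3 had opposite signs.

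With Cre-ERT2, whose activated Cre converts the Ctnnb1 allele to its stabilized form, Ikzf3 rose and Ikzf1 fell. These comparisons share libraries with those of KO and WT. Ikzf3 rose by 0.29 (SE 0.043, limma adjusted p = 0.000879) in WT and by 0.23 (SE 0.043, adjusted p = 0.00345) in KO, or 1.22-fold and 1.18-fold. Ikzf1 fell by 0.17 (SE 0.018, adjusted p = 6.33e-05) in KO and by 0.062 (SE 0.018, adjusted p = 0.0494) in WT, where the call was lost with each library centred on its median (adjusted p = 0.0507) and whenever 1 library was left out other than replicate 2 of Cre-ERT2 WT or replicates 2 and 3 of Cre-ERT2 KO, with differences of -0.073 to -0.053. On the unlogged scale these falls were 10.9% in KO and 4.17% in WT. Ikzf4 changed by 0.081 in KO (95% interval 0.020 to 0.14, adjusted p = 0.0858) and by -0.013 in WT (95% interval -0.074 to 0.048). In WT, 2 of 4 family genes were called, beside 11.9% of all genes, and in KO also 2 of 4, beside 12.6%. With 3 libraries against 3, the exact permutation test cannot go below 0.1, which both genes reached in both backgrounds.

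Whether the response to Cre-ERT2 differed between KO and WT was tested as a difference of differences, called for 4.53% of all genes and for 1 of 4 family genes. For Ikzf1 it was -0.10 (SE 0.026, limma adjusted p = 0.0422), but the exact permutation p was 0.16, and the call was lost whenever 1 library other than replicate 3 of Cre-ERT2 KO was left out (-0.12 to -0.092). For Ikzf3 it was -0.054 (95% interval -0.19 to 0.080, adjusted p = 0.732). For Ikzf4 the value of 0.094 was not called (adjusted p = 0.237), and its unadjusted exact permutation p was 0.04. For Ikzf5 it was 0.11 (95% interval -0.15 to 0.38).

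Levels of the family genes were set against each other only per length of the longest-coding transcript. Log2 expression per kilobase in ERT2 WT was 11.51 for Ikzf1, 9.76 for Ikzf3, 7.85 for Ikzf5 and 4.69 for Ikzf4. The order was the same in the other groups, and neighbours in it were separated by more than their SDs in every group. The smallest gap, 1.36 between Ikzf3 and Ikzf5, was in ERT2 KO. The step from counts to log2 values was not given in the sources used here, so these levels give an order rather than molecule numbers, and a change at the low level of Ikzf4 may be understated.

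Interferon regulatory factors Irf4 and Irf8 promote Ikzf1 and Ikzf3 expression in pre-B cells. Both were called between KO and WT with either vector, beside 59.0% of all genes with ERT2 and 58.9% with Cre-ERT2. They moved in opposite directions, and their part in the changes of Ikzf1 and Ikzf3 was not tested. Irf8 had a mean of 11.23 in ERT2 WT and of 12.19 in ERT2 KO, a rise of 0.96 (SE 0.028, limma adjusted p = 1.40e-11), and it rose by 0.93 in KO with Cre-ERT2. Irf4 fell by 0.77 with ERT2 (adjusted p = 7.94e-11) and by 0.52 with Cre-ERT2. With Cre-ERT2 against ERT2, Irf4 was higher by 0.26 in WT and by 0.51 in KO, and Irf8 by 0.18 in WT and 0.15 in KO.

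Of 18 genes listed from general knowledge as repressed by Ikaros factors, 13 were measured. With ERT2, 5 rose and 6 fell in KO, 84.6% called beside 59.0% of all genes, with a median change of -0.025. Cdk6, a kinase of the G1 phase, rose by 1.28, Myc by 1.10, the integrin gene Itga5 by 0.65 and the Notch target Hes1 by 0.44. Itga5 and Hes1 had low means in ERT2 WT, 5.83 and 6.21. The G1 cyclin genes Ccnd2 and Ccnd3 fell by 1.15 and 0.47. Dntt, encoding terminal deoxynucleotidyl transferase, fell by 0.87, and Vpreb1, encoding a surrogate light chain, fell by 0.54. Cd34 (0.0044) and Bcl2l1 (-0.025) were not called. With Cre-ERT2, 5 rose and 5 fell, 76.9% called beside 58.9% of all genes, or 5 and 7 with median centring and 6 and 6 with quantile normalization.

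Of 12 genes listed as promoted by Ikaros factors, 3 rose and 6 fell with ERT2, and 3 rose and 9 fell with Cre-ERT2, with medians of -0.080 and -0.22. The shares called were 75% and 100%, beside 59.0% and 58.9% of all genes. Blnk, the adaptor of pre-B cell receptor signaling, fell by 0.65 with ERT2. The cell-cycle inhibitor Cdkn1a fell by 0.64, the glucocorticoid receptor gene Nr3c1 by 0.41 and Cd79b, a signaling chain of the receptor, by 0.17. The recombinase genes Rag2 and Rag1 rose by 0.38 and 0.32, and the cell-cycle inhibitor Cdkn1b by 0.18. Ebf1 (-0.045), Pax5 (-0.030) and Txnip (-0.0073) were not called with ERT2 and were called lower with Cre-ERT2.

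Among 21 genes of the corepressor complexes that bind Ikaros proteins, 6 rose and 10 fell with either vector, 76.2% called beside 59.0% and 58.9% of all genes. The NuRD remodeler Chd4 rose by 0.33 with ERT2, its relative Chd3 by 0.20, the NuRD subunit gene Mta1 by 0.33 and Ctbp2 by 0.34. Ctbp2 had a low mean in ERT2 WT, 5.34 beside 14.28 for Chd4. Ezh2, the methyltransferase of Polycomb repressive complex 2, fell by 0.47, the SWI/SNF ATPase gene Smarca4 by 0.45, Ctbp1 by 0.32 and the methyl-DNA binder Mbd2 by 0.25. Uncalled genes were Eed (0.42, SE 0.28), Sin3a (-0.025), Gatad2a (0.027), Gatad2b (-0.012) and Rbbp7 (0.029).

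The 13 genes of enzymes that modify or degrade Ikaros proteins were measured in 14 rows, because Csnk2a1 had a pair of Ensembl identifiers. With ERT2, 4 rows rose and 2 fell, 42.9% called beside 59.0% of all genes. With Cre-ERT2, 7 rose and 4 fell, 78.6% called beside 58.9%. With each library centred on its median the balance turned, to 3 higher and 4 lower with ERT2 and 3 and 5 with Cre-ERT2. With quantile normalization it did not turn, at 6 higher and 3 lower with ERT2 and 7 and 2 with Cre-ERT2. Without replicate 3 of Cre-ERT2 KO, 10 rows were called with ERT2. Cul4a, a scaffold of the ubiquitin ligase that holds cereblon, rose by 0.43, the phosphatase gene Ppp1cb by 0.35, 1 row of the casein kinase gene Csnk2a1 by 0.14 and the cereblon gene Crbn by 0.092. The casein kinase subunit gene Csnk2b fell by 0.27.

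**Figure D4:**
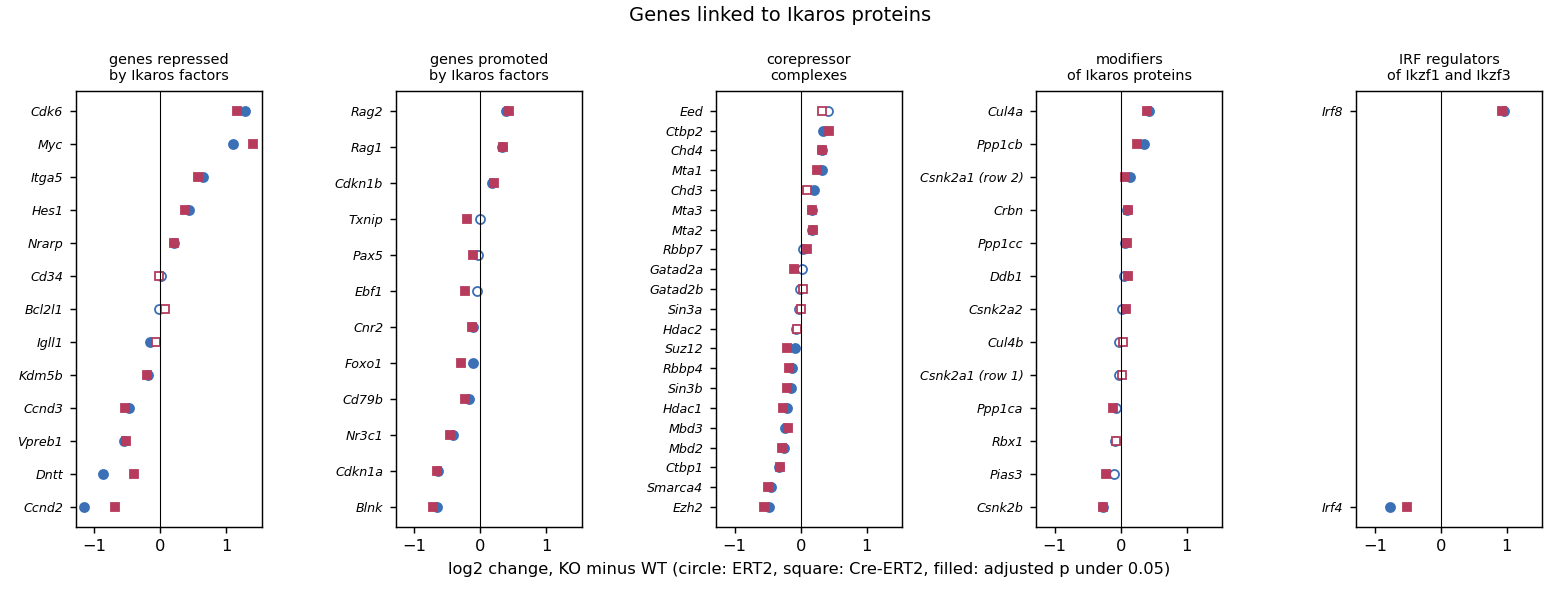
KO minus WT log2 changes of the genes in 5 lists, with ERT2 as circles and Cre-ERT2 as squares, filled at an adjusted p under 0.05; the horizontal axis is the log2 change, and 1 modifier gene is not shown. Each list holds genes on both sides of 0, from -1.15 for Ccnd2 with ERT2 to 1.41 for Myc with Cre-ERT2.

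The genes beside Ikzf1 and Ikzf3 on chromosome 11 were compared in the same way. Among the 5 measured genes on either side of Ikzf1, 6 of 10 were called with ERT2, and among those of Ikzf3, 5 of 10 were called, both near the 59.0% of all genes. Some measured neighbours of Ikzf1 were far from it. Sec61g lay 4728 kb away, Tns3 3020 kb, Gm11991 2800 kb and Hus1 2674 kb. Grb10 and Grb7, related genes for adaptors of receptor tyrosine kinases, are the neighbours that changed by more than 1 on the log2 scale. Grb10, 158 kb beyond Ikzf1, had means of 10.94 in ERT2 WT and 12.80 in ERT2 KO, a rise of 1.86 (limma adjusted p = 3.49e-13). Grb7, 9.53 kb from Ikzf3, had means of 6.88 in ERT2 WT and 7.27 in Cre-ERT2 WT, and of 8.05 and 9.28 in the matching KO groups. It rose by 1.16 in KO with ERT2 and by 2.02 with Cre-ERT2, opposite to Ikzf3. The genes closest to the edited ones changed less. Fignl1, 14.5 kb beyond Ikzf1, rose by 0.16 with ERT2, and Zpbp2, 5.07 kb from Ikzf3, also by 0.16. The aromatic amino acid decarboxylase gene Ddc, 41.2 kb beyond Ikzf1, rose by 0.51. The median changes of the neighbours with ERT2 were 0.045 for Ikzf1 and 0.059 for Ikzf3.

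**Figure D5:**
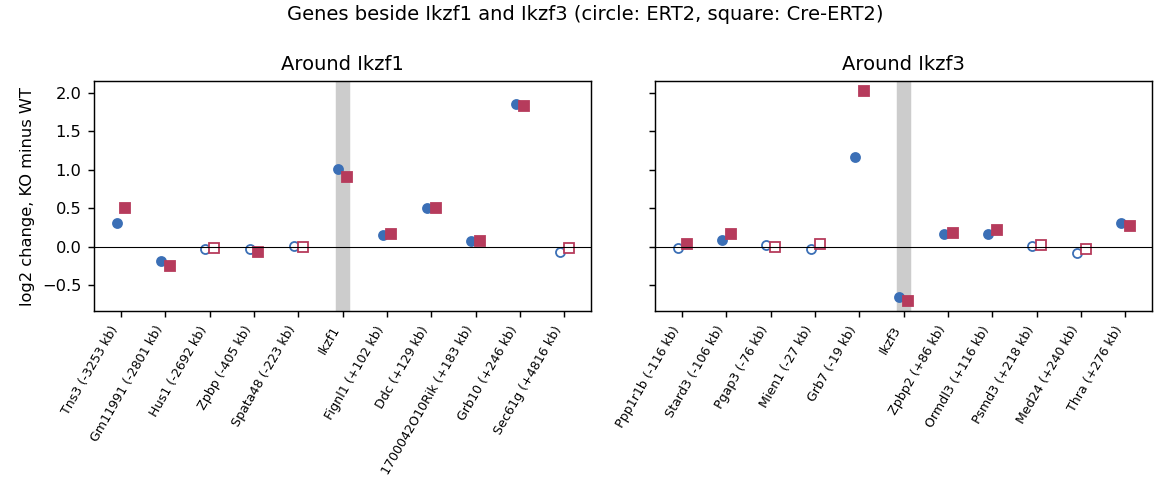
KO minus WT log2 changes of the 5 measured genes on either side of Ikzf1 and Ikzf3, in chromosome order, with the distance between gene starts in kb in each label; circles are ERT2, squares Cre-ERT2, and filled symbols had an adjusted p under 0.05. Grb10 (1.86 with ERT2) and Grb7 (2.02 with Cre-ERT2) stand out.

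The genes most like Ikzf1 over the 12 libraries, by the root mean square difference of values centred on each gene's mean, were Odc1, Shisa3, St3gal4, Lrp4 and Prickle3, with differences of 0.040 to 0.051 and Pearson's r of 0.995 to 0.997. Odc1, encoding the rate-limiting enzyme of polyamine synthesis, was 0.99 higher in KO with ERT2 and 0.98 higher with Cre-ERT2. Those most like Ikzf3 were Marcksl1, Dck, Optn, Osbpl8 and Tmem132e, with differences of 0.046 to 0.068 and r of 0.983 to 0.993. Marcksl1 was 0.70 lower in KO with ERT2 and 0.26 higher with Cre-ERT2 in WT. These likenesses describe 12 libraries that share 4 groups and carry no test.

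Markers of other cell types were examined beside these results. The log2 summed level of 8 B lineage markers, all measured and 6 of them also in the lists of repressed or promoted genes, was 16.54 to 16.60 in WT libraries and 16.16 to 16.24 in KO libraries. Of 6 T lineage markers only Lck was measured, at 8.81 to 9.73 in WT and 7.40 to 7.79 in KO. Of 6 myeloid markers Itgam and Lyz2 were measured, with a log2 summed level of 7.57 to 7.62 in WT and 8.45 to 8.76 in KO. Lyz2 rose in KO by 0.99 with ERT2 and 1.23 with Cre-ERT2, and Itgam fell by 0.15 and 0.18. None of 6 erythroid and megakaryocyte markers was analysed. The part of these shifts in the changes of the Ikaros family was not tested, and in bulk RNA fewer cells of a type and less RNA per cell cannot be told apart.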

How the data were processed

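Log2 normalized expression for 12151 genes in 12 libraries (4 groups of 3) was deposited by the authors. Poly(A) RNA from 280 ng of total RNA had been sequenced after KAPA stranded library preparation with 10 PCR cycles. Per the labels, Salmon 1.4.0, STAR 2.7.6 and DESeq2 1.30.1 were used with mm10 (GRCm38). The step to the deposited log2 values was not given in the sources used here, and without counts the depth per library is unknown. The labels give 1 day after 4-OHT in a sentence worded for ChIP, and no other time for these libraries. No column was left without a sample.

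Group means were fitted with limma 3.58.1 (lmFit, eBayes with trend) in R 4.3.3 over all libraries, with Benjamini-Hochberg adjustment. The fit was checked on simulated data. Single values were tested by 2-sided exact permutation. In place of the study's count model, log2 values were used. Guides were searched in GENCODE M21 transcripts, and zinc finger spacing in translated coding sequences. The family members and gene lists were chosen with earlier results of these data known. Named list genes were at most the 4 largest called changes in each direction with ERT2, plus uncalled genes; neighbours were the 5 measured genes on each side; the 5 most similar genes were named for Ikzf1 and Ikzf3. Alternatives covered scaling, pseudocount, a mean above 8, the prior, the libraries fitted, a threshold of 0.01, a replicate block and each library left out. Some near-match sites and list genes are not reported here.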

Additional observations from a re-analysis of the deposited data

Results flagged for a closer look

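The response to Cre-ERT2 was called as different between KO and WT for the following genes, except Ikzf4, by a limma test of the difference of differences (KO response minus WT response) with adjustment over 12151 genes. For Ikzf1 the difference was -0.10 (adjusted p = 0.0422), but the exact permutation p was 0.16, and the call was lost in 11 of 12 fits without 1 library and with median centring, quantile normalization or the replicate block. Among genes linked to Ikaros proteins it was 0.47 for Ccnd2, whose level fell by 0.15 in WT and rose by 0.32 in KO. For Dntt it was 0.47, with rises of 0.30 in WT and 0.77 in KO. For Myc it was 0.31, with falls of 0.62 in WT and 0.31 in KO. It was also -0.19 for Ebf1, -0.18 for Foxo1 (adjusted p = 0.0367, named after its values were seen) and 0.25 for Irf4. Among markers of other lineages it was -0.48 for Lck, which rose by 0.81 in WT and 0.33 in KO, and 0.24 for Lyz2. Among genes beside Ikzf1 and Ikzf3 it was 0.86 for Grb7 (adjusted p = 2.04e-06), 0.053 for Ppp1r1b (adjusted p = 0.0456) and 0.20 for Tns3 (adjusted p = 0.00434). For Ikzf4 the exact permutation test alone passed its threshold, with a difference of 0.094 (p = 0.04, not adjusted for the 4 family genes) and a limma adjusted p of 0.237.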

How the results depend on the processing

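For Ikzf1 and Ikzf3, the KO minus WT differences, the rise of Ikzf3 with Cre-ERT2 and the fall of Ikzf1 with Cre-ERT2 in KO kept their direction and call under every alternative run. The fall of Ikzf1 with Cre-ERT2 in WT lost its call with median centring (-0.067, adjusted p = 0.0507), with a pseudocount of 1 (-0.062, adjusted p = 0.0508), with only the groups compared (-0.062, adjusted p = 0.0700), at a threshold of 0.01 (-0.062) and with the replicate block (-0.062, adjusted p = 0.0853), and ranged from -0.073 to -0.053 (adjusted p 0.0324 to 0.177) with single libraries left out. The Ikzf1 difference of differences lost its call with median centring (-0.11, adjusted p = 0.0642), quantile normalization (-0.081, adjusted p = 0.131), a mean above 8 (-0.10, adjusted p = 0.0526), the threshold of 0.01 (-0.10) and the replicate block (-0.10, adjusted p = 0.0830), and ranged from -0.12 to -0.092 without single libraries. The cause was not tested. For Ikzf1 minus Ikzf3 the difference of differences, -0.051, ranged from -0.084 to 0.0076 and was not past the threshold in any of these. Counts of called modifier genes were 7 rather than 11 with Cre-ERT2 at 0.01, and 6 to 10 with ERT2 without single libraries. Other list counts stayed within 1.5 times. Ikzf4 has a mean of 6.08 and could not be fitted with the filter at 8. Deviations of same-numbered libraries correlated weakly (r from -0.068 to 0.31, over 0.1 in 2 of 12 pairs). Of these pairs, 6 matched best with their own number. With 3 libraries per group this cannot decide whether numbers pair samples, and the main fit did not use them as pairs. The replicate block ended no family call but those given for Ikzf1. Unknown depth limits what can be said of Ikzf4, the lowest of the family.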
